A study of Mus musculus with 12 samples.

Results

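Hair keratins and keratin-associated proteins build the hair shaft and the sheath that moulds it, and their transcripts were followed here in mouse eyelid tissue across diet and time of day. The members were chosen by name, by a rule set with earlier results of these data known: every gene whose symbol starts with Krtap, the 20 named keratin genes of the hair shaft and inner root sheath, and Tchh, Padi3 and S100a3. By name 79 genes of the 21936 in the table qualified, and 75 of them passed a filter of more than 1 FPKM (fragments per kilobase of exon, scaled to the reads of the library) in at least 2 of the 12 libraries, a filter that 13228 genes passed. The 75 are 19 keratins, 53 keratin-associated proteins (KAPs), and Tchh, Padi3 and S100a3. Krt85, the twentieth keratin of the rule, was not analysed here. Krtap13, Krtap31-1, Krtap31-2 and Krtap9-5 did not pass. The nearest of them was Krtap31-1, with at most 0.787 FPKM, and the lowest members inside the filter were Krtap29-1 with a mean of 0.981 FPKM and Krtap4-13 with 1.502 FPKM.

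All mice were male C57BL/6, 6 to 8 weeks old when the study began, and lived under 12 h of light a day. HF mice ate a diet with 60 kcal% fat and CTL mice a standard diet with 10 kcal% fat, for 3 months by the sample labels and 4 months by the series text. Eyelids were taken at 9h, 15h or 21h, and each of the 6 groups (HF_9h, CTL_9h, HF_15h, CTL_15h, HF_21h and CTL_21h) has 2 libraries, named by the numbers in their labels. The labels call the tissue meibomian gland, whereas by the series text the upper and lower lids were taken whole, and lids also carry skin, lashes, conjunctiva and muscle. How many mice went into a library is not given in the labels, and the spread behind each p-value is that between libraries, which may be technical. In such bulk tissue, fewer hair follicle cells and less RNA per cell cannot be told apart.

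Hair grows from matrix cells at the base of the follicle. Their progeny leave the cell cycle and form concentric layers: the inner root sheath, hardened by trichohyalin and by the keratins of the Krt25 and Krt71 groups, and inside it the cuticle and cortex of the shaft. In the cortex, type I keratins such as Krt31 pair with type II keratins such as Krt81, and the filaments are embedded in KAPs. KAPs are small proteins classed by composition as high-sulfur, ultra-high-sulfur or high glycine-tyrosine, and their genes sit in clusters. Hair follicles alternate between growth, regression and rest, and the shaft and sheath genes are transcribed in the growing follicle.

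The promoters of the members were searched for 2 short motifs, and some of the sequences that hold them are shown. RefSeq promoters (GRCm38.p6) were found for 64 of the 75 members, as 67 sequences. The 6 letters TATAAA, the core of a TATA box, lay on the gene's own strand within 50 bases before the start in 40 of the 67 (59.7%), against 2.63% of all 32851 promoters in the table. On either strand the shares were 59.7% and 3.504%. The 7 letters CTTTGAA, a core recognised by LEF1 and related factors of the Wnt pathway, lay on either strand within 250 bases before the start in 12 of the 67 (17.9%), against 4.46% of all promoters. The motifs were searched separately. CTTTGAA was found in the promoters of the 3 cortex keratins that have one in the table (Krt31, Krt33b and Krt34), and in none of the 7 inner root sheath keratins. A match describes the letters only, and its bearing on the levels below was not tested. Many members are related genes of the same families, so their promoters are not independent readings.

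The 30 bases that hold CTTTGAA, in capitals, in the 8 members where it began between -247 and -236 on the strand of the gene:
Krt31 (chr11:100050772-100050801, minus strand): tgacttCTTTGAAgggctactgcagaactc
Krt33b (chr11:100030089-100030118, minus strand): ttaCTTTGAAgccaaaccatgaagctcttt
Krt34 (chr11:100041775-100041804, minus strand): aatctgcctcCTTTGAAggcatctaatgaa
Krt32 (chr11:100088490-100088519, minus strand): gccCTTTGAAgatgtgtcttgatgctctcc
Krtap1-5 (chr11:99581237-99581266, minus strand): acagtaagaagactCTTTGAAcatggaaac
Krtap16-3 (chr16:88963094-88963123, minus strand): tggcCTTTGAAgagggtgaaatcgtttttc
Krtap11-1 (chr16:89571404-89571433, minus strand): gaccaatagCTTTGAAgctgtcaactgcat
Krtap19-3 (chr16:88878259-88878288, minus strand): attatccaaCTTTGAAgtctttgttatttt

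In Krt31, Krt33b and Krt34, whose genes are neighbours on chromosome 11, the motif began at -244, -247 and -240 from the start, and in Krt32, a cuticle keratin of the same cluster, at -247. In Krtap1-5, a high-sulfur KAP on chromosome 11, it began at -236, and in Krtap16-3, Krtap11-1 and Krtap19-3 on chromosome 16 at -246, -241 and -241. In the other 4 members with the motif, Tchh, Krtap14, Krtap15 and Krtap24-1, it lay nearer to the start.

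The last 60 bases before the start, with TATAAA in capitals, for 9 members that hold it, from the sheath, cortex and cuticle keratins and from the KAP classes:
Krt71 (chr15:101743098-101743157, minus strand): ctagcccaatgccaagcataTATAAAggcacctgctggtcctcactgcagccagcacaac
Krt25 (chr11:99322952-99323011, minus strand): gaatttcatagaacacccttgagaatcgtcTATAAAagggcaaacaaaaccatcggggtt
Krt31 (chr11:100050552-100050611, minus strand): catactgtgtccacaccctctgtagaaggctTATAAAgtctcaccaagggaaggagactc
Krt32 (chr11:100088270-100088329, minus strand): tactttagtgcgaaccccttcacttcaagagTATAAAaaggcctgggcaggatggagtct
Krtap8-1 (chr16:89487953-89488012, minus strand): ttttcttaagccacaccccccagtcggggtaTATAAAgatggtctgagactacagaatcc
Krtap6-3 (chr16:89083964-89084023, plus strand): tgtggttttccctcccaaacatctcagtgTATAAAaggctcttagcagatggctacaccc
Krtap11-1 (chr16:89571184-89571243, minus strand): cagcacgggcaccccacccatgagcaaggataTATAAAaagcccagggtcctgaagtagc
Krtap4-7 (chr11:99644090-99644149, minus strand): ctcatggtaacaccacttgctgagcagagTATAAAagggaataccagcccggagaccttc
Krtap28-13 (chr1:83060870-83060929, plus strand): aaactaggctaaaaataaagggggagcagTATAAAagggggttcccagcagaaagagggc

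In 8 of these 9 the motif began between -31 and -28, and in Krt71 at -40. These 9 do not show the spacing of all members that hold the motif. It began at -15 in Krt27, at -47 in Krt33b and at -49 in Krtap6-2. All 4 inner root sheath keratins of the Krt25 and Krt71 groups named below held it, as did the 3 cortex keratins with a promoter in the table, 11 of 16 ultra-high-sulfur, 9 of 14 high-sulfur and 8 of 15 high glycine-tyrosine KAP promoters. It was not in the window of Tchh, Padi3, Krt36 or Krt84.

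The members took 0.753% to 2.001% of the summed FPKM of a library. On the FPKM scale, which allows for gene length, the 4 inner root sheath keratins and the 16 high glycine-tyrosine KAPs made up the most, on average 31.2% and 28.4% of the members' sum. High-sulfur KAPs made up 13.2%, cortex keratins 8.06%, trichohyalin with its deiminase 6.89% and ultra-high-sulfur KAPs 6.17%. Shaft cuticle genes made up 0.537%. The genes lie mostly in clusters, with 31 on chromosome 11, 23 on chromosome 16, 8 on chromosome 15 and 5 on chromosome 7 (GRCm38). Within families reads can be split between copies: 56 of the 75 share at least 1 stretch of 50 bases with another gene, 30 share over 10% of such stretches, and Krtap4-13 and Krtap5-1 share over 50%. Krt81 shared 37.7% and Krt86 43.3% of their stretches, mostly with each other, so their separate values are uncertain. Krtap10-10 overlaps exons of Gm2696 on its own strand over 43.4% of its length and Krtap15 exons of 4930553J12Rik over 19.1%, so that reads there can belong to either gene. Krt32 overlaps exons of Gm11571 on the other strand over 14.5%, and Krtap24-1 those of Gm49688 over 9.52%. Whether strand was used in counting is not given in the sources used here, so the values of Krt32 and Krtap24-1 may hold reads of those genes.

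**Figure D1:**
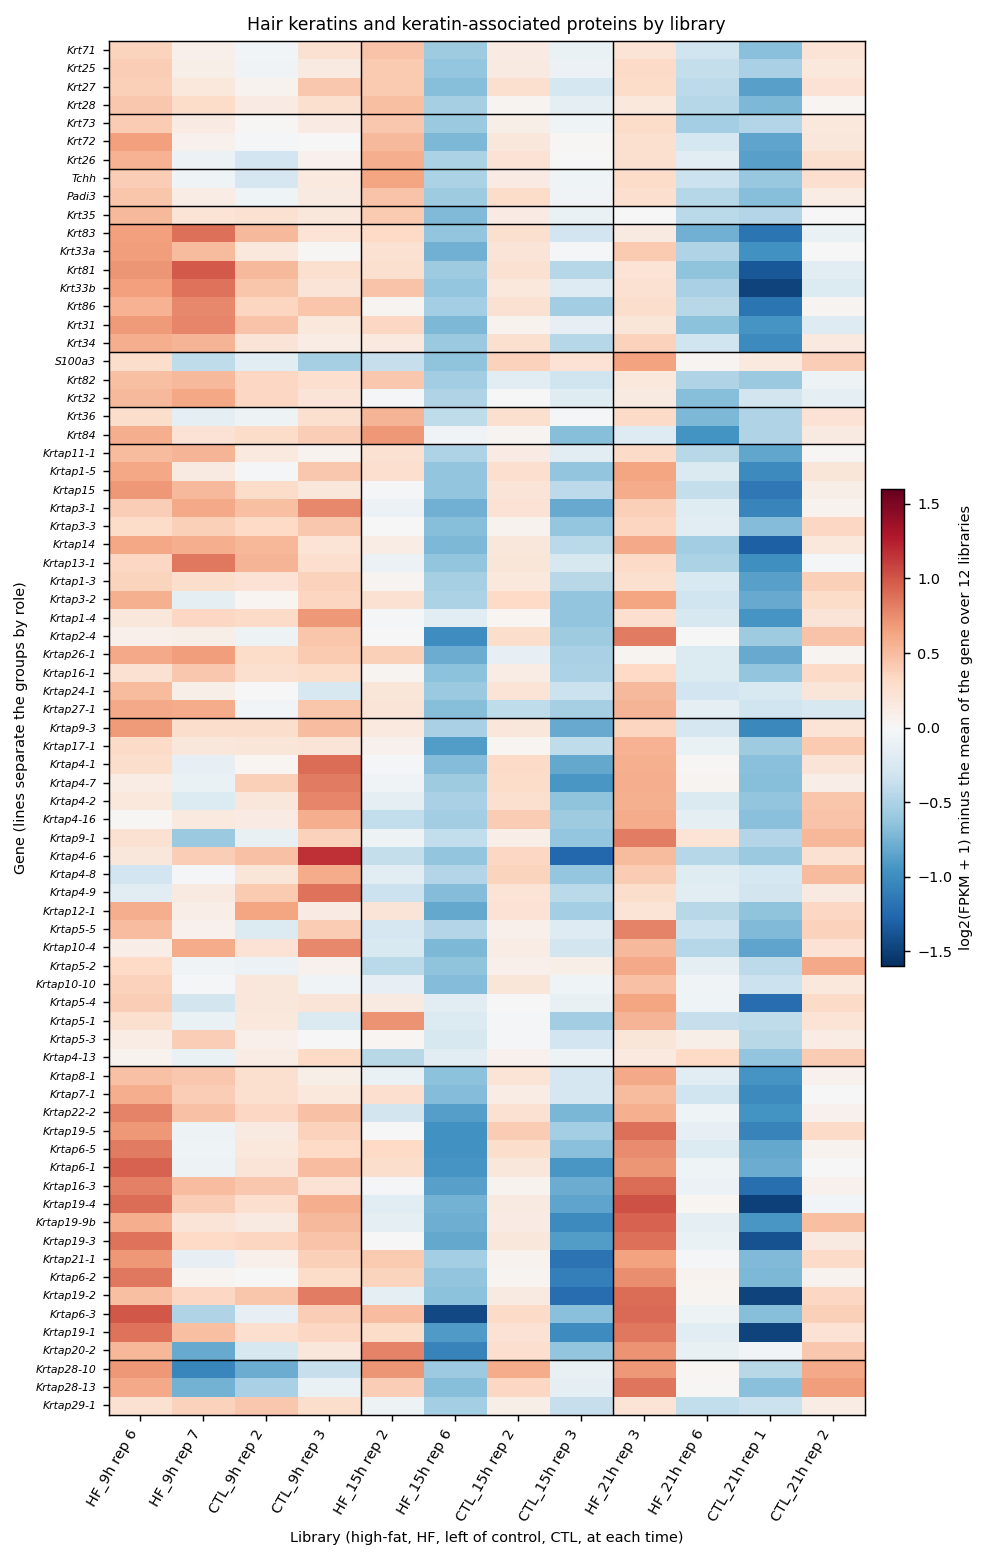
Rows are the 75 genes, grouped by role and separated by lines, and columns the 12 libraries, with HF left of CTL at each time. Colour is the log2(FPKM + 1) of a gene minus its mean over the 12 libraries. HF_15h replicate 6 and CTL_21h replicate 1 are blue in nearly every row, and the cortex keratins are reddest in HF_9h replicate 7.

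Krt71, Krt25 and Krt27 of the inner root sheath had the highest mean levels of all members. Krt71 (ENSMUSG00000051879, chromosome 15, 101733949 to 101743109, minus strand), a type II keratin of this sheath, was at 781 and 643 FPKM in HF_9h against 594 and 724 in CTL_9h, 835 and 412 in HF_15h against 669 and 566 in CTL_15h, and 712 and 486 in HF_21h against 382 and 709 in CTL_21h. Its highest and lowest libraries differed by 2.19-fold, and HF and CTL overlapped at every time. Krt25, a type I keratin of the sheath (ENSMUSG00000035831, chromosome 11, 99315516 to 99322951, minus strand), was at 532 and 432 FPKM in HF_9h against 392 and 448 in CTL_9h, 545 and 263 in HF_15h against 447 and 381 in CTL_15h, and 502 and 310.4 in HF_21h against 284 and 457 in CTL_21h. HF_15h replicate 6 was its lowest library and HF_15h replicate 2 its highest, so that group alone spans the range of the gene. Krt27 and Krt28, type I keratins of the same layers, ranged from 176 to 437 FPKM and from 41.3 to 95.99 FPKM.

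Of the keratins of the sheath's own cuticle, Krt73 was at 54.3, 95.4 and 111 FPKM in HF libraries, against 58.99, 85.5 and 92.03 FPKM in CTL libraries (lowest, median and highest of 6), Krt72 at 25.5, 47.98 and 67.8 FPKM in HF libraries, against 23.3, 43.02 and 48.6 FPKM in CTL libraries, and Krt26 at 12.6, 19.5 and 27.9 FPKM in HF libraries, against 9.54, 18.7 and 22.01 FPKM in CTL libraries. The ranges of HF and CTL over all times overlapped for all 3, and each HF range was the wider at its upper end. At 9h alone, both HF libraries of Krt72 lay above both CTL libraries, but not those of Krt73 or Krt26. Trichohyalin, the protein that fills and hardens the sheath cells and the medulla (Tchh, ENSMUSG00000052415, chromosome 3, 93442330 to 93449077, plus strand), was at 384 and 278 FPKM in HF_9h against 243 and 326 in CTL_9h, 454 and 206 in HF_15h against 319 and 278 in CTL_15h, and 359 and 229 in HF_21h against 192 and 352 in CTL_21h. Padi3, the deiminase that converts arginines of trichohyalin to citrulline, was at 22.4 and 17.7 FPKM in HF_9h against 15.4 and 18.00 in CTL_9h, 22.6 and 10.6 in HF_15h against 20.2 and 15.5 in CTL_15h, and 19.7 and 11.5 in HF_21h against 9.74 and 17.6 in CTL_21h. Both genes were lowest in CTL_21h replicate 1 and highest in HF_15h replicate 2, as was Krt28.

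Krt35, the keratin that shaft cells switch on first above the matrix, was at 51.9 and 41.98 FPKM in HF_9h against 42.5 and 40.6 in CTL_9h, 48.3 and 21.5 in HF_15h against 39.4 and 33.03 in CTL_15h, and 36.1 and 26.2 in HF_21h against 25.5 and 35.7 in CTL_21h. Its lowest library was HF_15h replicate 6. The 7 cortex keratins had means of 46.1 to 64.4 FPKM and moved more than the sheath keratins, with highest-to-lowest folds of 3.15 to 5.38 against 2.07 to 2.48. Krt31, the type I cortex keratin with CTTTGAA shown above (ENSMUSG00000048981, chromosome 11, 100046646 to 100050551, minus strand), was at 79.4 and 84.95 FPKM in HF_9h against 68.04 and 55.2 in CTL_9h, 61.9 and 29.4 in HF_15h against 51.3 and 44.9 in CTL_15h, and 56.6 and 30.8 in HF_21h against 25.1 and 42.3 in CTL_21h. Krt81, a type II cortex keratin (ENSMUSG00000067615, chromosome 15, 101459061 to 101463751, minus strand), was at 84.5 and 102 FPKM in HF_9h against 74.5 and 61.97 in CTL_9h, 61.8 and 34.5 in HF_15h against 61.4 and 37.2 in CTL_15h, and 60.3 and 32.6 in HF_21h against 19.5 and 45.8 in CTL_21h. At 9h both HF libraries lay above both CTL libraries for Krt31 and Krt81, at 15h and 21h the groups overlapped, and CTL_21h replicate 1 was the lowest for both. Krt83 and Krt86 (type II) had lowest, median and highest levels of 34.5, 70.1 and 110.1 FPKM in HF libraries, against 26.00, 62.4 and 85.7 FPKM in CTL libraries, and of 33.3, 55.4 and 84.6 FPKM in HF libraries, against 21.3, 54.6 and 67.4 FPKM in CTL libraries. Krt33a, Krt33b and Krt34 (type I) had 33.4, 72.97 and 91.9 FPKM in HF libraries, against 29.04, 58.2 and 66.8 FPKM in CTL libraries, 31.2, 62.1 and 89.3 FPKM in HF libraries, against 16.6, 48.2 and 66.1 FPKM in CTL libraries, and 28.8, 52.8 and 66.3 FPKM in HF libraries, against 21.1, 48.3 and 52.6 FPKM in CTL libraries. All 7 were lowest in CTL_21h replicate 1.

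The shaft cuticle members were lower in level. Krt32, the type I keratin of the cuticle (ENSMUSG00000046095, chromosome 11, 100080848 to 100088226, minus strand), was at 8.897 and 9.604 FPKM in HF_9h against 7.66 and 6.95 in CTL_9h, 5.801 and 3.94 in HF_15h against 5.905 and 5.04 in CTL_15h, and 6.595 and 3.28 in HF_21h against 4.64 and 5.200 in CTL_21h. The 4 libraries of 9h, of both diets, were its 4 highest. Krt82, the type II keratin of the same layer, was at 10.7 and 11.1 FPKM in HF_9h against 9.57 and 9.14 in CTL_9h, 10.4 and 4.74 in HF_15h against 6.49 and 5.76 in CTL_15h, and 8.47 and 5.02 in HF_21h against 4.58 and 6.96 in CTL_21h. S100a3, a calcium-binding protein of the hair cuticle (ENSMUSG00000001021, chromosome 3, 90560578 to 90602702, plus strand), was at 12.6 and 7.43 FPKM in HF_9h against 8.95 and 6.72 in CTL_9h, 7.63 and 6.18 in HF_15h against 13.5 and 12.1 in CTL_15h, and 16.4 and 10.5 in HF_21h against 11.5 and 13.7 in CTL_21h. At 15h its HF libraries lay below its CTL libraries, and it did not share the low values of CTL_21h replicate 1. The S100a3 locus has 5660 bases of merged exon in the annotation, which lowers its FPKM. Krt36 and Krt84, known mainly from tongue papillae and nail, had lowest, median and highest levels of 5.83, 10.9 and 15.4 FPKM in HF libraries, against 7.11, 11.1 and 12.5 FPKM in CTL libraries, and of 3.08, 7.46 and 11.8 FPKM in HF libraries, against 3.95, 7.47 and 9.38 FPKM in CTL libraries.

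**Figure D2:**
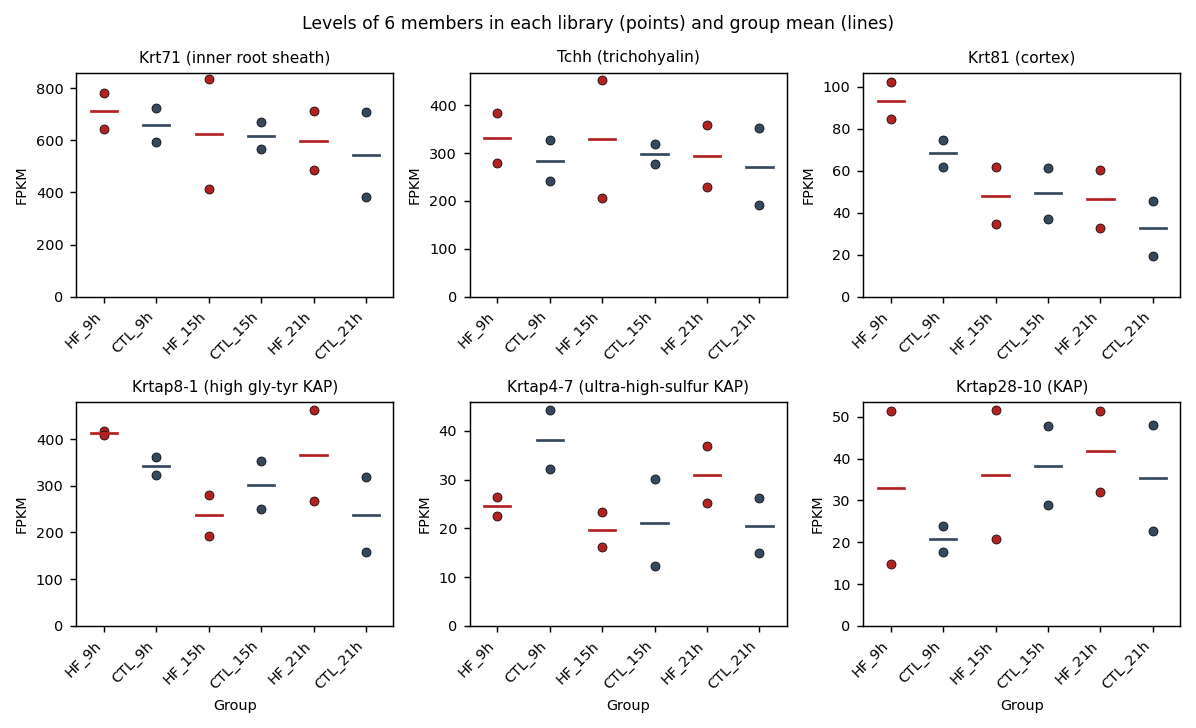
Each panel gives the FPKM of 1 gene, with a point for each library, a line for the mean of its group, HF in red and CTL in grey. In Krt81 the 4 points of 9h lie between 61.97 and 102 FPKM and those of 21h between 19.5 and 60.3 FPKM, while in Krtap28-10 the lowest points are HF_9h replicate 7 and CTL_9h replicate 2.

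Among the high glycine-tyrosine KAPs, Krtap8-1 (ENSMUSG00000059632, chromosome 16, 89487379 to 89487952, minus strand) was at 418 and 409 FPKM in HF_9h against 363 and 324 in CTL_9h, 280.5 and 192 in HF_15h against 354 and 250.3 in CTL_15h, and 463 and 268 in HF_21h against 157 and 319 in CTL_21h. At 9h both HF libraries were above both CTL libraries. Krtap7-1 had lowest, median and highest levels of 164, 335 and 396 FPKM in HF libraries, against 130.2, 277 and 317 FPKM in CTL libraries. Krtap22-2 had 59.02, 128 and 192 FPKM in HF libraries, against 56.1, 123 and 153 FPKM in CTL libraries, Krtap16-3 34.1, 75.3 and 118 FPKM in HF libraries, against 26.7, 65.8 and 84.8 FPKM in CTL libraries, and Krtap21-1 30.9, 53.4 and 74.4 FPKM in HF libraries, against 19.5, 47.96 and 59.8 FPKM in CTL libraries. In each of these 4 genes the ranges of HF and CTL over the 3 times overlapped over most of their length. At 9h alone, both HF libraries of Krtap7-1 and Krtap16-3 lay above both CTL libraries, but not those of Krtap22-2 or Krtap21-1. Krtap19-5 led the Krtap19 family of 6 tested genes, whose sum was 465 and 325 FPKM in HF_9h against 328 and 394 in CTL_9h, 265 and 153 in HF_15h against 322 and 151 in CTL_15h, and 527 and 261 in HF_21h against 113 and 329 in CTL_21h. Krtap6-5 led the Krtap6 family of 4, whose sum was 374 and 188 FPKM in HF_9h against 218 and 263 in CTL_9h, 253 and 104 in HF_15h against 231 and 110.3 in CTL_15h, and 339 and 188 in HF_21h against 115 and 212 in CTL_21h. Krtap20-2 was the lowest of the class, at 2.01, 6.502 and 10.02 FPKM in HF libraries, against 3.08, 5.67 and 7.55 FPKM in CTL libraries. In 15 of the 16 genes of this class the highest library was either HF_9h replicate 6 or HF_21h replicate 3.

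Of the 15 high-sulfur KAPs, Krtap11-1 (ENSMUSG00000091212, chromosome 16, 89570176 to 89571183, minus strand) was at 137 and 141 FPKM in HF_9h against 107 and 99.9 in CTL_9h, 114 and 68.2 in HF_15h against 105 and 84.8 in CTL_15h, and 119 and 70.3 in HF_21h against 53.4 and 97.3 in CTL_21h. Krtap1-5, Krtap15 and Krtap3-1 had highest-to-lowest folds of 3.199, 3.65 and 3.63, with means of 91.4, 85.2 and 80.1 FPKM. All 4 were lowest in CTL_21h replicate 1. Krtap14 and Krtap13-1 averaged 45.3 and 44.97 FPKM, Krtap2-4 17.6, Krtap26-1 12.4 and Krtap24-1 4.76 FPKM. Krtap27-1, a gene of the chromosome 16 cluster, was at 7.01 and 6.92 FPKM in HF_9h against 4.102 and 6.14 in CTL_9h, 5.05 and 2.29 in HF_15h against 2.99 and 2.64 in CTL_15h, and 6.699 and 3.72 in HF_21h against 3.22 and 3.41 in CTL_21h. Its HF libraries lay above its CTL libraries at 9h and 21h and overlapped them at 15h.

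The 19 ultra-high-sulfur KAPs, which are rich in cysteine, were led by Krtap9-3 with 48.1, 80.9 and 112 FPKM in HF libraries, against 33.4, 79.8 and 98.5 FPKM in CTL libraries, and by Krtap17-1 with 14.2, 29.9 and 40.7 FPKM in HF libraries, against 18.2, 29.7 and 36.9 FPKM in CTL libraries. Krtap4-1 was the highest of the 8 tested Krtap4 genes, with 16.2, 26.7 and 40.3 FPKM in HF libraries, against 14.8, 29.2 and 50.4 FPKM in CTL libraries. Krtap4-7 (ENSMUSG00000045109, chromosome 11, 99643106 to 99644089, minus strand) was at 26.5 and 22.5 FPKM in HF_9h against 32.2 and 44.3 in CTL_9h, 23.3 and 16.2 in HF_15h against 30.1 and 12.3 in CTL_15h, and 36.98 and 25.1 in HF_21h against 14.9 and 26.3 in CTL_21h. Unlike the cortex keratins, Krtap4-7 was highest in a CTL library, CTL_9h replicate 3, and lowest in CTL_15h replicate 3. Krtap4-9, of the same cluster, was at 6.17 and 7.86 FPKM in HF_9h against 9.79 and 13.7 in CTL_9h, 5.36 and 3.99 in HF_15h against 8.38 and 4.96 in CTL_15h, and 8.78 and 6.13 in HF_21h against 5.58 and 7.91 in CTL_21h. Its HF libraries lay below its CTL libraries at 9h. Krtap12-1, Krtap5-5 and Krtap10-4, the leading genes of their families, had means of 6.72, 6.24 and 5.98 FPKM.

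Krtap28-10, 1 of 2 Krtap28 genes on chromosome 1 (ENSMUSG00000100190, chromosome 1, 83041524 to 83042480, minus strand), was at 51.5 and 14.7 FPKM in HF_9h against 17.6 and 24.01 in CTL_9h, 51.6 and 20.7 in HF_15h against 47.9 and 28.8 in CTL_15h, and 51.4 and 32.1 in HF_21h against 22.8 and 48.1 in CTL_21h. Within each of the 6 groups it was higher in the library with more Krt71. HF_9h replicate 7, the highest library of Krt81, was its lowest. Krtap28-13 was likewise lowest in HF_9h replicate 7, with 9.57 FPKM. Krtap29-1 stayed between 0.326 and 1.602 FPKM.

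Libraries of the same group differed widely, and the low libraries were of both diets. The summed FPKM of the 75 members was 6422 and 5366 in HF_9h against 4923 and 5496 in CTL_9h, 5434 and 2842 in HF_15h against 5084 and 3562 in CTL_15h, and 6138 and 3646 in HF_21h against 2526 and 5023 in CTL_21h, a 2.54-fold range, and the lowest libraries were CTL_21h replicate 1, HF_15h replicate 6, CTL_15h replicate 3 and HF_21h replicate 6, which is 1 library of each group at 15h and 21h. The highest library of a member exceeded its lowest by a median of 3.31-fold (2.05 for Krt73 to 6.95 for Krtap5-4), against a median of 1.65-fold over all genes tested. CTL_21h replicate 1 was the lowest library of 42 members, HF_15h replicate 6 of 18 and CTL_15h replicate 3 of 10. HF_21h replicate 3 was the highest of 19, HF_9h replicate 6 of 16, HF_9h replicate 7 of 12 and HF_15h replicate 2 of 12. The SD left within groups had a median of 0.49 on the log2(FPKM + 1) scale over the members and 0.15 over all genes tested. The members' median was above that of 96.8% of genes.

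Within the groups of 15h and 21h nearly all members followed Krt71. At 15h, 74 of 75 members (Krt71 included) were higher in the library with more Krt71 in HF_15h and 74 of 75 in CTL_15h, by medians of 0.82 and 0.62 in log2(FPKM + 1). At 21h it was 74 of 75 in HF_21h and 75 of 75 in CTL_21h, by medians of 0.75 and 1.02. The exceptions were Krtap4-13 in the HF groups and Krtap5-2 in CTL_15h. At 9h the libraries were closer, with 53 of 75 members in HF_9h and 52 of 75 in CTL_9h, by medians of 0.28 and 0.15. Of all genes, 54% in HF_15h, 45.7% in CTL_15h, 54.3% in HF_21h and 49.6% in CTL_21h were higher in the library with more Krt71. At 9h the members' share in HF_9h (70.7%) was near that of all genes (67.8%), and in CTL_9h it was 69.3% against 51.4%. The median difference of all genes between the same libraries was -0.018 to 0.15. At 9h most cortex keratins were higher in the library with less Krt71: 5 of 7 in HF_9h (Krt81, Krt83, Krt86, Krt31 and Krt33b, but not Krt33a or Krt34) and 6 of 7 in CTL_9h (all but Krt86).

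**Figure D3:**
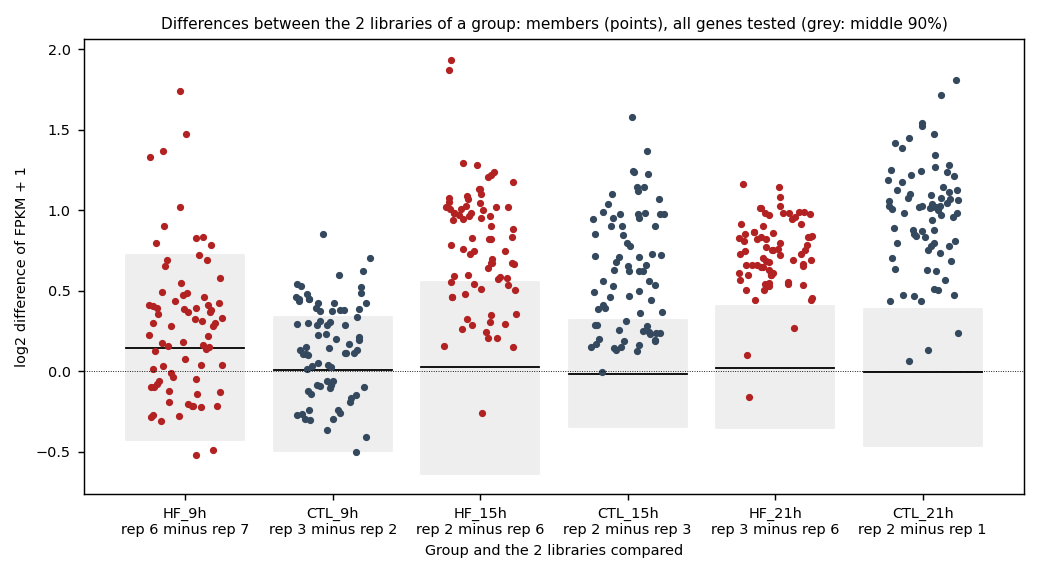
For each group, points give the log2 difference of each of the 75 members between its 2 libraries, the one with more Krt71 minus the other, in red for HF and grey for CTL groups. The grey band holds the middle 90% of all genes tested and the black line their median. At 15h and 21h nearly all points lie above 0, and at 9h they lie on both sides.

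Members that had the order of Krt71 in all 6 groups numbered 38 of 75 (50.7%, Krt71 included), against 4.27% of all genes tested. Of the other lists, all 6 groups were matched by 5 of 17 regulators of the hair matrix and shaft, 4 of 11 other hair shaft and sheath genes, 3 of 8 genes of the companion layer, outer root sheath and bulge, and 2 of 7 pigment cell genes. It was 0 of 8 for the dermal papilla, 0 of 10 each for interfollicular epidermis, meibocytes and sebocytes and the cell cycle, 0 of 6 for conjunctiva and 0 of 7 for skeletal muscle. At least 5 groups were matched by 64 of 75 members and 2486 of 13228 genes. In the order of the lists above, that cut gave 14 of 17, 5 of 11, 4 of 8 and 5 of 7. It gave 3 of 8 for the dermal papilla, 2 of 10 for meibocytes and sebocytes, and 0 for the other 4 lists. A first principal component of the members held 74.7% of their variance, with weights of 1 sign in all 75. The second held 9.47% and set Krt81, Krt83, Krt33b, Krt31 and Krtap13-1 against Krtap28-10, Krtap28-13, Krtap20-2 and Krtap6-3, and it was highest in HF_9h replicate 7.

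Genes of different layers were compared in 7 pairs across the 12 libraries, with p-values adjusted over the 7. The permutations shuffled all 12 libraries without regard to their group. The p-values therefore do not separate differences between the groups from those within them. Krt71 and Krt35 had Pearson's r of 0.90 (permutation p = 0.00013, adjusted p = 0.00091) and Spearman's rho of 0.79 (permutation p = 0.00351, adjusted p = 0.0123). Krt71 and Krt82 had Pearson's r of 0.83 (permutation p = 0.00075, adjusted p = 0.00262) and Spearman's rho of 0.75 (permutation p = 0.00715, adjusted p = 0.0167). Krt71 and Krt31 had Pearson's r of 0.80 (permutation p = 0.00192, adjusted p = 0.00448) and Spearman's rho of 0.66 (permutation p = 0.0237, adjusted p = 0.0414). These values describe sheath and shaft genes that were high in the same libraries. Krt31 and Foxn1, a transcription factor that drives shaft differentiation, had Pearson's r of 0.78 (permutation p = 0.00315, adjusted p = 0.00551) and Spearman's rho of 0.82 (permutation p = 0.00162, adjusted p = 0.0113). Krt71 and Tyrp1, a melanosome enzyme of pigment cells, had Pearson's r of 0.76 (permutation p = 0.0053, adjusted p = 0.00742) and Spearman's rho of 0.57 (permutation p = 0.0567, adjusted p = 0.0794). Without CTL_21h replicate 1 and HF_15h replicate 6, the libraries farthest from the median, r was 0.80 (permutation p = 0.00572) with Krt35, 0.69 (permutation p = 0.0276) with Krt82, and 0.72 (permutation p = 0.02) for Krt31 and Foxn1. It was 0.56 (permutation p = 0.0939) for Krt71 and Krt31 and 0.38 (permutation p = 0.279) for Krt71 and Tyrp1, so these 2 relations rested on those libraries. Krt31 had r of 0.15 (permutation p = 0.639) with Krt10, an epidermal keratin, and 0.28 (permutation p = 0.373) with Scd1, a desaturase abundant in meibocytes. Without the same 2 libraries these were 0.56 (permutation p = 0.0947) with Krt10, about the value of Krt71 and Krt31, and 0.12 (permutation p = 0.736) with Scd1. Within diets, Krt31 and Krt10 had r of 0.62 in the 6 HF libraries and -0.34 in the 6 CTL libraries, Krt31 and Scd1 -0.13 in the 6 HF libraries and 0.73 in the 6 CTL libraries, Krt71 and Krt31 0.84 in the 6 HF libraries and 0.75 in the 6 CTL libraries, Krt71 and Krt82 0.91 in the 6 HF libraries and 0.71 in the 6 CTL libraries, and Krt71 and Tyrp1 0.80 in the 6 HF libraries and 0.82 in the 6 CTL libraries. Likewise Krt71 and Krt35 had r of 0.96 in the 6 HF libraries and 0.85 in the 6 CTL libraries, and Krt31 and Foxn1 0.90 in the 6 HF libraries and 0.60 in the 6 CTL libraries.

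Averaged over the 3 times, no member passed the test for a difference between HF and CTL mice. By limma's moderated test on log2(FPKM + 1), with Benjamini-Hochberg adjustment over all 13228 genes, 0 of 75 members had an adjusted p under 0.05, against 1.98% of all genes. At an unadjusted p under 0.05 it was 0 of 75 members, against 14.1% of all genes. By limma-voom, run on the recovered reads, 0 of 75 members were called as well, against 1.78% of all genes. The log2 difference of HF minus CTL was positive for 61 of the 75, with a median of 0.13, against -0.0057 over all genes. It was positive for the 7 cortex keratins (median 0.22), all 16 high glycine-tyrosine KAPs (0.26) and all 15 high-sulfur KAPs (0.14), and for 8 of 19 ultra-high-sulfur KAPs (-0.021). The members' median rested on single libraries: it was -0.028 (32 positive) without CTL_21h replicate 1, -0.0035 (36 positive) without HF_15h replicate 2 and 0.013 (40 positive) without HF_21h replicate 3, within a range of -0.028 to 0.29 when 1 library was left out. Of the class medians, that of the cortex keratins was 0.052 to 0.42 and that of the high glycine-tyrosine KAPs 0.073 to 0.44, while that of the high-sulfur KAPs (-0.03 to 0.30) and that of the ultra-high-sulfur KAPs (-0.13 to 0.11) changed sign. The smallest p belonged to Krtap27-1 with 0.37 ± 0.17 (SE), unadjusted p 0.0616, limma adjusted p 0.383, Krtap4-9 with -0.31 ± 0.16 (SE), and Krtap6-2 with 0.47 ± 0.27 (SE). Krt71 averaged 645 ± 166 FPKM in HF libraries and 607 ± 127 FPKM in CTL libraries (SD, n = 6 each, over the 3 times), a log2 difference of 0.074 ± 0.21 (SE). Krt31 averaged 57.2 ± 23.5 FPKM in HF and 47.8 ± 14.4 FPKM in CTL libraries, a log2 difference of 0.20 ± 0.22 (SE).

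At 9h, 0 of 75 members were called between HF and CTL, as were 0% of all genes, and 1 member had an unadjusted p under 0.05, against 7.22% of genes. That member was Krtap4-9, with -0.66 ± 0.27 (SE), unadjusted p 0.0374, limma adjusted p 0.661. Both HF libraries lay above both CTL libraries for 22 members and below them for 6, which together is 28 of 75, while 29.8% of all genes did one or the other. The 22 included all 7 cortex keratins with Krt32 and Krt82, and the 6 were all Krtap4 genes: Krtap4-2, Krtap4-6, Krtap4-7, Krtap4-8, Krtap4-9 and Krtap4-13. The cortex keratins had a median log2 difference of 0.42, with Krt31 at 0.42 ± 0.38 (SE). Without 1 library the median of the cortex keratins was 0.32 to 0.56, and that of all members, 0.16 with every library, was -0.024 (33 positive) without HF_9h replicate 6. Krtap4-8 had -0.56 ± 0.36 (SE) and Krtap4-7 -0.61 ± 0.40 (SE). The Krtap4 genes share sequence and neighbour each other, so they are not independent readings. Their summed FPKM was 137 and 127 in HF_9h against 151 and 230.5 in CTL_9h. The same limit holds for the 7 cortex keratins, which neighbour each other on chromosomes 11 and 15. They shared 17.8% (Krt33a) to 43.3% (Krt86) of their stretches of 50 bases with other genes. Their summed FPKM was 566 and 618 in HF_9h against 473 and 416 in CTL_9h.

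At 15h, 0 of 75 members were called, against 0.0605% of all genes, and 1 member, S100a3, had an unadjusted p under 0.05, against 11.6% of genes. S100a3 had a log2 difference of -0.81 ± 0.26 (SE), unadjusted p 0.012, limma adjusted p 0.294. The 2 HF libraries lay below the 2 CTL libraries for S100a3, Krtap4-13, Krtap5-2, Krtap5-5 and Krtap10-10 and above them for no member, against 45.7% of all genes that did one or the other. Krtap5-2 had -0.62 ± 0.33 (SE) and Krtap10-10 -0.48 ± 0.26 (SE). The differences were positive for 20 members, with a median of -0.12. This direction depended on single libraries, with a median of 0.30 (63 positive) without HF_15h replicate 6, 0.15 (58 positive) without CTL_15h replicate 2, -0.50 (4 positive) without HF_15h replicate 2 and -0.45 (4 positive) without CTL_15h replicate 3.

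At 21h, 0 of 75 members were called, against 0.00756% of all genes, and 1 had an unadjusted p under 0.05, against 5.37% of genes. That member, Krtap19-4 (ENSMUSG00000043982, chromosome 16, 88884786 to 88885089, minus strand), a high glycine-tyrosine KAP, was at 116 and 58.2 FPKM in HF_21h against 19.7 and 55.3 FPKM in CTL_21h, a log2 difference of 1.29 ± 0.51 (SE), unadjusted p 0.032, limma adjusted p 0.818. Its HF libraries did not overlap its CTL libraries, by a narrow margin, and Krtap27-1 was the other such member, against 37.8% of all genes that lay apart in either direction. The differences were positive for 71 members, with a median of 0.35, and 0.70 for the high glycine-tyrosine KAPs. Krtap16-3 had 0.97 ± 0.48 (SE) and Krtap19-3 1.01 ± 0.55 (SE). CTL_21h replicate 1, the library lowest in 42 members, is 1 of the 2 CTL libraries here. The members' median was -0.13 (23 positive) without CTL_21h replicate 1, 0.013 (40 positive) without HF_21h replicate 3, 0.75 (74 positive) without HF_21h replicate 6 and 0.88 (74 positive) without CTL_21h replicate 2. That of the high glycine-tyrosine KAPs was 0.14 to 1.18 without 1 library, lowest without CTL_21h replicate 1.

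**Figure D4:**
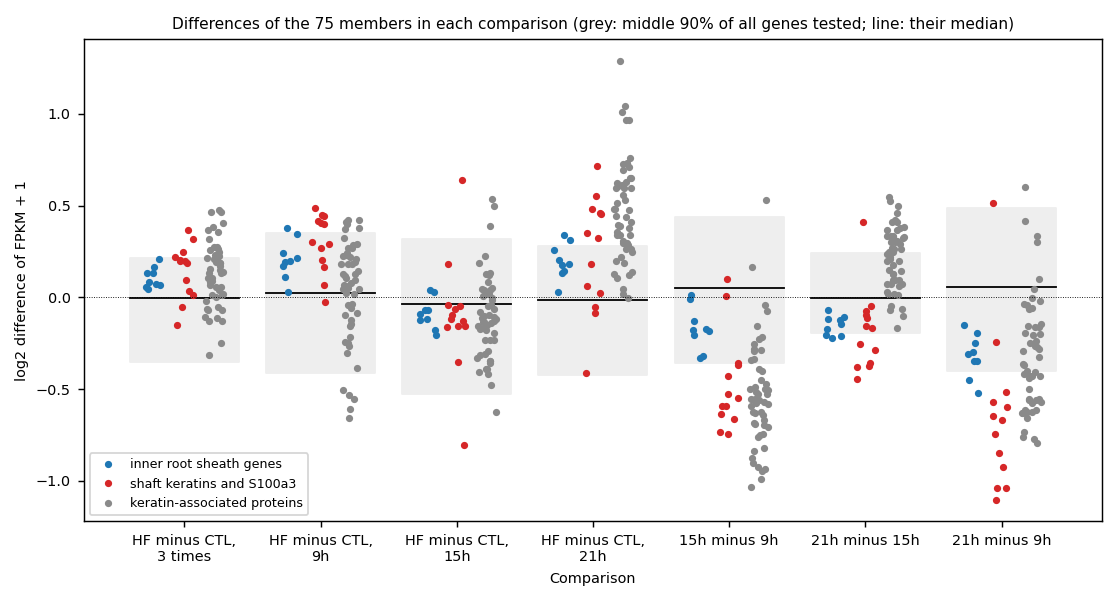
Points give the log2 difference of each member in 7 comparisons, in blue for inner root sheath genes, red for shaft keratins and S100a3, and grey for KAPs. The grey band holds the middle 90% of all genes tested and the black line their median. The members lie mostly above 0 for HF minus CTL at 21h (median 0.35, but -0.13 without CTL_21h replicate 1) and mostly below 0 for 15h minus 9h (median -0.53), and none passed the adjusted test in any of the 7.

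The test of whether the diet difference depended on time called 0 of 75 members, as it called 0% of all genes. At an unadjusted p under 0.05 it was 1 member, S100a3 (unadjusted p 0.0337, limma adjusted p 0.999), against 3.06% of genes. The next smallest p were those of Krtap10-10 and Krtap4-7. The log2 differences of S100a3 were 0.29 ± 0.26 (SE) at 9h, -0.81 ± 0.26 (SE) at 15h and 0.063 ± 0.26 (SE) at 21h.

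Most shaft genes had lower mean levels at 15h and 21h than at 9h, but none was called. Averaged over diets, the F test of time called 0 of 75 members, against 1.46% of all genes, and 16 had an unadjusted p under 0.05, against 23.6% of genes, a similar share. Krt32 had the smallest p (unadjusted p 0.00696, limma adjusted p 0.0984), before Krt81 and Krt31. For 15h minus 9h, 0 of 75 were called, against 0.0227% of all genes, and 21 had an unadjusted p under 0.05, all with lower levels at 15h, against 23.2% of genes. The log2 difference was negative for 70 members, with a median of -0.53 against 0.051 over all genes. Krtap27-1 had -0.75 ± 0.21 (SE), unadjusted p 0.00617, limma adjusted p 0.104, Krt32 had -0.59 ± 0.17 (SE), and Krtap22-2 had -0.93 ± 0.28 (SE). The medians were -0.69 for high glycine-tyrosine KAPs, -0.64 for cortex keratins and -0.25 for inner root sheath keratins. Without 1 library the median over all members was -0.71 to -0.32, highest without HF_15h replicate 6, where that of the inner root sheath keratins was 0.0098.

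For 21h minus 15h, 0 of 75 were called, as were 0% of all genes, and no member had an unadjusted p under 0.05, against 4.45% of genes. The smallest p were those of S100a3 with 0.41 ± 0.18 (SE), unadjusted p 0.05, limma adjusted p 1, Krtap9-1 with 0.53 ± 0.29 (SE) and Krtap5-2 with 0.39 ± 0.23 (SE). The median was 0.32 for high glycine-tyrosine KAPs and 0.30 for ultra-high-sulfur KAPs, but -0.29 for cortex keratins and -0.12 for inner root sheath keratins. Without 1 library these medians were -0.0061 to 0.62 (lowest without CTL_21h replicate 2), 0.054 to 0.51, -0.55 to -0.024 and -0.39 to 0.14 (highest without HF_15h replicate 2), in the same order of classes.

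For 21h minus 9h, 0 of 75 were called, against 6.02% of all genes, and 14 had an unadjusted p under 0.05, against 28.3% of genes. Of the 14, 13 had lower levels at 21h, and the other was Krtap28-10. Krt32 came closest to the threshold with -0.67 ± 0.17 (SE), unadjusted p 0.0037, limma adjusted p 0.0543, followed by Krt81 with -1.10 ± 0.31 (SE) and Krt31 with -0.92 ± 0.27 (SE). Krt83 had -1.04 ± 0.30 (SE) and Krt33b -1.04 ± 0.32 (SE). The median was -0.92 over the 7 cortex keratins, -0.38 over the inner root sheath keratins and -0.16 over the ultra-high-sulfur KAPs. Without 1 library these were -1.15 to -0.71, -0.62 to -0.13 and -0.44 to 0.07, and the median of the ultra-high-sulfur KAPs changed sign without CTL_21h replicate 1. After rescaling by median-of-ratios size factors Krt32 had a limma adjusted p of 0.0425, with limma-voom on recovered reads 0.0453, and it also passed without HF_9h replicate 6 (0.0413), HF_15h replicate 2 (0.0486) or HF_15h replicate 6 (0.0484). Without HF_9h replicate 6 S100a3 was called too, and without either HF_15h library Krt31, Krt82 and Krtap26-1 were. The members' share was below that of all genes in each of these fits, with 7.07% of all genes called after rescaling, 7.18% with limma-voom, 25.5% without HF_9h replicate 6, 6.43% without HF_15h replicate 2 and 6.42% without HF_15h replicate 6, where 4 of 75 are 5.33%. Within diets, the F test of time called 0 of 75 members in HF (against 0% of genes) and 0 of 75 in CTL (against 0.0227%), with 4 and 1 at an unadjusted p under 0.05, against 8.73% and 18.3% of genes. In HF the smallest p were those of Krt32, S100a3 and Krtap22-2, and in CTL those of Krtap4-9, S100a3 and Krtap3-1.

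Members were also set against each other within each library, which takes out only what scales both sets alike. The classes moved unequally between libraries, so part of what they share can remain in the ratios. Their sums had highest-to-lowest folds of 3.28 for high glycine-tyrosine KAPs, 3.90 for cortex keratins and 2.16 for inner root sheath keratins. Cortex keratins were, as a share of the summed FPKM of the 7 inner root sheath keratins, 27.8 and 36.97% in HF_9h against 30.8 and 22.6 in CTL_9h, 20.5 and 22.5 in HF_15h against 24.02 and 20.7 in CTL_15h, and 23.3 and 20.4 in HF_21h against 16.3 and 19.3 in CTL_21h. The 21h libraries had the lowest 2 values and HF_9h replicate 7 the highest. High glycine-tyrosine KAPs were, as a share of cortex keratins, 360.0 and 252% in HF_9h against 318 and 378 in CTL_9h, 310.4 and 323 in HF_15h against 348 and 292 in CTL_15h, and 477 and 469 in HF_21h against 398 and 401 in CTL_21h. All 4 libraries of 21h lay above all 8 of the other times, and within 21h both HF libraries lay above both CTL libraries. As a share of the inner root sheath keratins the same KAPs were 100.2 and 93.01% in HF_9h against 97.8 and 85.3 in CTL_9h, 63.7 and 72.8 in HF_15h against 83.5 and 60.5 in CTL_15h, and 111 and 95.7 in HF_21h against 64.8 and 77.2 in CTL_21h, and on that scale the libraries of 21h overlapped those of 9h and of 15h. The Krtap28 pair was, as a share of the inner root sheath keratins, 3.82 and 1.45% in HF_9h against 1.89 and 2.15 in CTL_9h, 3.51 and 3.04 in HF_15h against 4.004 and 3.098 in CTL_15h, and 4.44 and 4.12 in HF_21h against 3.39 and 4.25 in CTL_21h, with its 3 lowest values at 9h. The Krtap4 family was 5.06% to 12.5% of the inner root sheath keratins, lowest in CTL_15h replicate 3 and highest in CTL_9h replicate 3. These ratios were chosen after their members' values were seen and are given without a test.

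**Figure D5:**
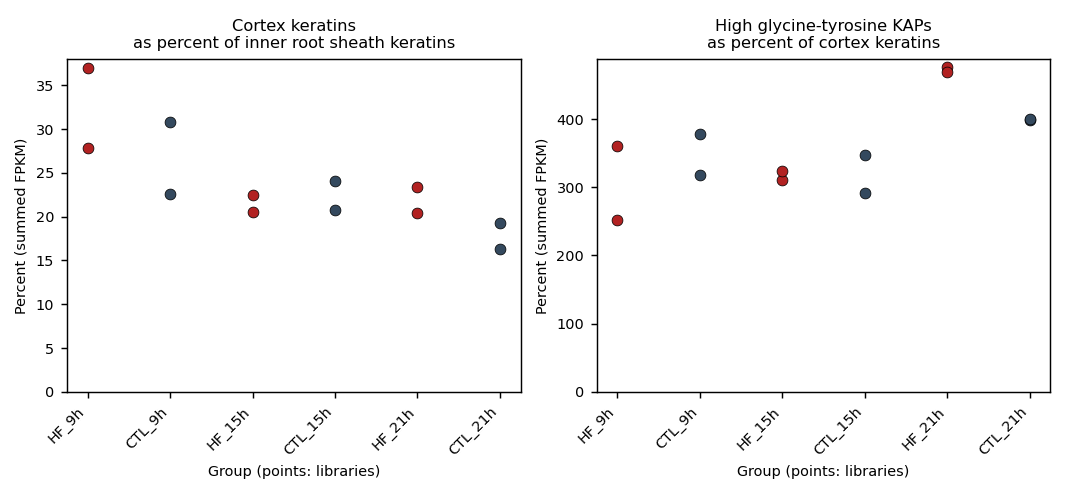
Points give 2 ratios of summed FPKM in each library, in percent, by group, with HF in red and CTL in grey. The share of high glycine-tyrosine KAPs to cortex keratins is 398% to 477% in the 4 libraries of 21h and at most 378% in the others.

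Genes of the same pathway outside the rule, and markers of the other tissues of the lid, gave few calls for diet averaged over times. Of all genes tested 1.98% were called there, so few calls are no trait of these lists. Among regulators of the hair matrix and shaft, 0 of 17 tested genes were called for diet, with Barx2 at -0.18 and Ovol1 at -0.19 (log2 differences of HF minus CTL). Among other hair shaft and sheath genes it was 0 of 11, with Padi1 at -0.33 and Gprc5d at 0.28, and among genes of the companion layer, outer root sheath and bulge 0 of 8, with Sox9 at -0.19 and Krt15 at -0.18. Dermal papilla genes gave 0 of 8 (Fgf10 0.13, Sox2 -0.19), pigment genes 0 of 7 (Slc45a2 -0.30, Mitf 0.15) and epidermal genes 0 of 10 (Krt5 -0.24, Ivl -0.16). Of the 10 meibocyte and sebocyte genes Soat1, which esterifies cholesterol, was higher in HF by 0.42 (limma adjusted p 0.0408), and of the 10 cell cycle genes Rrm2 was lower, at -0.40 (limma adjusted p 0.00875). Conjunctival genes gave 0 of 6 (Muc4 -0.44, Muc5ac 0.43) and muscle genes 0 of 7 (Myh1 0.50, Mylpf -0.19).

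With time, Hr, a corepressor needed for hair cycling, was lower at 21h than at 9h by a log2 difference of -0.59 (limma adjusted p 0.026). It was the 1 call among the 17 regulators for 21h minus 9h, where 6.02% of all genes were called. Among the 7 skeletal muscle genes 4 were lower at 21h: Ckm (-1.20), Acta1 (-1.02), Myh2 (-1.33) and Myh4 (-0.89), with limma adjusted p of 0.0225 to 0.0285. The summed FPKM of the 7 muscle genes was 4170.1 to 5342 in the libraries of 9h, 2103 to 3659 at 15h and 2142 to 3353 at 21h, so muscle RNA, like the mean levels of the shaft keratins, was lower at the later times, and its part in those values was not tested. The 10 genes of meibocytes and sebocytes summed to 5445 to 9430.3 FPKM, most of it from Scd1 (2993 to 5270 FPKM). This list does not separate the labelled gland from other sebocytes of the lid. The 10 epidermal genes, of which 6 are keratins, summed to 2786 to 3946 FPKM. Most of that sum came from Krt5 (1013 to 1429 FPKM) and Krt14 (1501 to 2052 FPKM). Krt10, Krt1 and Lor were lower and varied widely between libraries, at 32.6 to 488, 19.6 to 382 and 7.34 to 233 FPKM. The sum of the meibocyte and sebocyte genes was also lowest in CTL_21h replicate 1, and the epidermal sum was highest there. The regulators summed to 152 to 234 FPKM, lowest in HF_15h replicate 6, and the other hair genes to 280.3 to 595 FPKM, lowest in CTL_21h replicate 1. Dermal papilla genes, which mark the cells that instruct the matrix, summed to 30.2 to 56.6 FPKM, with 49.6 in CTL_21h replicate 1. Most of the 49.6 came from Wif1 (20.6 FPKM), Bmp4 (11.03 FPKM) and Fgf7 (8.19 FPKM), so the sum says little of the lower genes. Corin, at 0.746 to 1.37 FPKM, was lowest in that library. Sox2 was not, at 1.83 FPKM in a range of 0.690 to 2.06 FPKM.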

How the data were processed

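The deposited table holds FPKM values of 12 libraries from mouse eyelids, 2 for each diet and time. Per the submitters' processing notes the tools were HISAT2 2.0.5, HTSeq 0.9.1 and DESeq 1.30.0 with build mm9. How FPKM was computed, whether counting used strand and which annotation it used is not given in the sources used here. IDs and lengths match GENCODE mouse release M21 on GRCm38, from which coordinates are given (21894 of 21936 IDs found). With its merged exon lengths, 98.1% to 98.2% of nonzero values were whole reads within 0.02 reads, at 14096362 to 17889158 reads per library, and a single read over 1 kb of exon equalled 0.0559 to 0.0709 FPKM. Samples were grouped by the labels. Values were tested as log2(FPKM + 1) with limma 3.58.1 (mean-dependent prior, R 4.3.3) for 13228 genes, with 1 mean for each of the 6 groups and 6 residual degrees of freedom, and p-values were adjusted over all genes. An adjusted p under 0.05 counts as called. The log2(FPKM + 1) scale understates changes of low genes. The test was checked on simulated data. Correlations used 100000 permutations, 2-sided, in scipy 1.17.1. Members, roles and lists were chosen with earlier results of these data known, and roles and KAP classes follow general knowledge of the families. Named singly are the keratins, Tchh, Padi3, S100a3, the highest member of each Krtap family, called members or, with none, the 3 with the smallest p, and from each list its called genes or the 2 with the smallest p for diet. Krtap4-7, Krtap19-3 and Krtap5-4 and further members beside counts were named after their values were seen. Of the list genes, Fgf5, Rspo2, Rspo3, Hhip and Oca2 did not pass the filter and Krt74 was not analysed here. A planned description of protein composition was not analysed here. Alternatives are given in the closing section.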

Additional observations from a re-analysis of the deposited data

Results flagged for a closer look

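In 5 members the lowest of the 6 CTL libraries, over the 3 times, stood far from the next by Dixon's 95% criterion, and in each it was CTL_21h replicate 1. Its level was 29.04 FPKM for Krt33a and 16.6 FPKM for Krt33b, type I keratins of the cortex. It was 58.99 FPKM for Krt73 and 23.3 FPKM for Krt72, keratins of the inner root sheath cuticle, and 53.4 FPKM for Krtap11-1, a high-sulfur KAP. The criterion was applied to 96 sets of 6 libraries, of which chance flags about 1 in 20, and the genes of this group move together, so the 5 are not separate readings. No other set of 6 met it.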

How the results depend on the processing

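The 39 results (counts of called members, the named differences and the layer pairs) were recomputed under a pseudocount of 0.1, no low-value filter, rescaling by median-of-ratios size factors, limma-voom on recovered reads, a fit of the compared time alone, a replicate block, and without each library in turn. Of the 563 values, 549 kept their direction and their side of the threshold, and 7 values, of Krt32 and Krt31 for 21h minus 9h, passed the threshold that the reported ones missed. Members called for 21h minus 9h were 0 as reported, 1 (Krt32) after rescaling, 1 (Krt32) with limma-voom, and 0 to 4 without 1 library: 2 without HF_9h replicate 6 and 4 without HF_15h replicate 2 or HF_15h replicate 6. Of all genes, 25.5%, 6.43% and 6.42% were called in the fits without these 3 libraries, so the members' shares lay below that of all genes. For the F test of time in both diets they were 0 to 1 without 1 library, with S100a3 called without HF_9h replicate 6, where 19% of all genes were. The members' median differences of HF minus CTL changed sign without 1 library averaged over times and at each time. In the replicate block fit, where the number in the label was an added term, the difference of Krtap4-7 at 9h was 0.028, against -0.61 as reported. The members' median at 15h was 0.23 and at 9h 1.07, against -0.12 and 0.16. That fit called 0 of 75 members, but also 0% of all genes for diet averaged over times, 21h minus 9h and time in both diets. As reported, these shares of all genes were 1.98%, 6.02% and 1.46%. Since it called almost no gene, it could not show how firm the members' counts are. The numbers are not said to pair mice, the mice at different times are different animals, and the deviations of the libraries numbered 2 and 3 in CTL_9h and CTL_15h had a correlation of -0.083. Number 7 occurs only in HF_9h and number 1 only in CTL_21h, so the added term took up those libraries completely. At 9h no number occurs in both diets, so that difference was adjusted through libraries of other times. The term also left fewer residual degrees of freedom than the reported fit. Beyond this the cause of these changes was not tested. With 2 libraries a group and a median within-group SD of 0.49, differences near that size could not be called for most members.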

Other observations

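Genes that the naming rule missed lie inside the same clusters. Between the outermost members on chromosome 11 are 18 further tested genes, and 8 of them had the order of Krt71 in all 6 groups. On chromosome 16 there are 10, of which 3 did in all 6 and 9 in at least 5. On chromosome 10 it was 2 of 12 in all 6, on chromosome 7 it was 2 of 4, and on chromosome 15 it was 1 of 7. Over all genes tested 4.27% did so in all 6. These genes were picked by position after the data were seen, and the shares are a description of these libraries only. Gm10229, on chromosome 16 (GRCm38, 89015284 to 89015846), averaged 132 FPKM, against 317 for Krtap8-1, 278 for Krtap7-1 and 118 for Krtap22-2, with 214 and 151 FPKM in HF_9h against 154 and 146 in CTL_9h, 130.3 and 66.8 in HF_15h against 142 and 75.5 in CTL_15h, and 205 and 109.9 in HF_21h against 59.8 and 128 in CTL_21h. Krt39 and Krt40, hair keratins of the chromosome 11 cluster that the rule does not name, ranged from 1.36 to 4.04 FPKM and from 0.712 to 5.42 FPKM and followed Krt71 in all 6 groups. Other keratins of the clusters did not: Krt10 and Krt5, of the epidermis, had the order of Krt71 in 3 of 6 groups each, Krt6b in 2 and Krt6a in 1. Krt75, a keratin of the companion layer in the chromosome 15 cluster, had it in all 6, at 24.04 to 46.1 FPKM.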
